A study of Mus musculus with 3 samples.

Results

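The genes described here are 32 members of the unfolded protein response and the integrated stress response, taken as a list of textbook genes with no threshold on their values. Each was taken on probe sets that the platform annotation gives to 1 gene only, and the probe set with the highest mean signal stood for the gene. All 32 were found among 18193 genes so represented. The samples were mouse dendritic cells, which take up antigen and show it to T cells. They came from bone marrow kept 10 days in culture with 10 ng/ml of the growth factor GM-CSF (BMDCs). The groups were BMDC(-), unstimulated; BMDC(+LPS), given lipopolysaccharide at 10 ng/ml for 3 h; and BMDC(+LPS+cAMP), given the same LPS together with 8-Br-cAMP at 100 µM for 3 h. Tlr4 is the receptor that senses LPS, a lipid of the outer membrane of bacteria, and 8-Br-cAMP is a cell-permeable analogue of cyclic AMP. For strain, sex, age and any pooling of mice the labels used here say nothing, and no array had 8-Br-cAMP without LPS. Each group had 1 Affymetrix Mouse 430 2.0 array. No difference below therefore has a replicate check or a p-value, and treatment cannot be told apart from any other difference between the cultures.

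The endoplasmic reticulum (ER) folds secreted and membrane proteins. When unfolded proteins build up there, the sensors encoded by Ern1 (IRE1), Eif2ak3 (PERK) and Atf6 set off the unfolded protein response: IRE1 splices the messenger RNA of the transcription factor Xbp1, cleaved ATF6 enters the nucleus, and PERK phosphorylates the initiation factor eIF2 alpha, which lowers translation in general while that of Atf4 goes up. Other kinases phosphorylate eIF2 alpha in answer to lack of amino acids, haem shortage or viral RNA, and their shared output through Atf4 is called the integrated stress response. The response acts through splicing, cleavage, phosphorylation and translation as well as through transcript levels, and the arrays read only transcript levels.

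The values are probe set signals that were scaled so that the 3 arrays had the same trimmed mean, since the LPS+8-Br-cAMP array was deposited with a trimmed mean of 63.2 against 111 with LPS and 135 unstimulated. A floor was set at a scaled signal of 32.5, the highest of the 3 array medians, and signals under it were treated as equal to it. Differences are log2 differences of scaled signal. A gene was called higher or lower when it passed 2-fold. As a measure of scatter within the arrays, the brightest and the next probe set of 1 gene were compared over all genes that had both above the floor, which gave an error of 1 probe set of 0.45 log2 units for LPS against unstimulated, 0.48 for LPS+8-Br-cAMP against LPS and 0.56 for LPS+8-Br-cAMP against unstimulated. This is not the spread between cultures.

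The cultures also differed in other transcripts. All 9 dendritic cell markers were above the floor on all 3 arrays, with a summed scaled signal of 24371 unstimulated, 27700 with LPS and 32370 with both agents (LPS+8-Br-cAMP). The 12 granulocyte markers were above the floor on all 3 arrays as well, and their sum was 43036, 45356 and 23884 in the same order, with 8 of 12 at least 2-fold lower with LPS+8-Br-cAMP than with LPS. Of 10 plasma cell markers 8 were above the floor unstimulated, 8 with LPS and 6 with both agents, and Tnfrsf17 and Derl3 lay under the floor on all 3. The sum of the 10 was 6955, 5027 and 4903, and Sdc1 made up most of the last. For LPS+8-Br-cAMP against LPS 3 of 8 measured were at least 2-fold lower and 2 higher. The antibody heavy chain Ighm read 3086, 1495 and 52.5, so it was 2.06-fold lower with LPS alone as well, and the heavy chain Igha 903, 881 and 57.0. The joining chain Jchain read 716, 529 and, under the floor, 23.2. Sdc1, at 1598, 1540 and 3864, and Irf4, which other cells also express, were more than 2-fold above the LPS array with LPS+8-Br-cAMP. The 7 mast cell, basophil or eosinophil markers summed to 1749, 1775 and 735, with 4 of 7 at least 2-fold lower on the LPS+8-Br-cAMP array than on the LPS array. Among the B cell, macrophage, T or NK cell, erythroid and stromal markers, no more than 1 gene of a list passed 2-fold with LPS. The same held for LPS+8-Br-cAMP against LPS, except in the stromal list, where Col1a1 was lower (-1.26) and Dcn higher (1.30). Xist, transcribed in female cells, read 32.3 unstimulated, 8.08 with LPS and 1716 with both agents. The Y-linked Eif2s3y read 352, 272 and 1.24, and the Y-linked Uty 66.0, 78.2 and 3.64. By these readings the LPS+8-Br-cAMP array came from female cells and both others from male cells. In comparisons with that array, 8-Br-cAMP therefore cannot be told apart from sex or from a difference between mice. The part of all these marker and sex-linked transcripts in the differences below, those with LPS alone included, was not tested. In a bulk sample, fewer cells of a type and less RNA per cell cannot be told apart.

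As a set, the 32 genes had medians near 0, with members on both sides. Of the 32, 21 stayed within 2-fold in all comparisons and 11 passed it in at least 1. All 32 were above the floor on at least 1 array of each comparison and 31 were above it on all 3 arrays, the exception being Pdia4. With LPS 2 members passed 2-fold upward and 3 downward, where 6.64% of 12283 measured genes were called higher and 13% lower. The members' shares were 6.25% and 9.38%. Their median log2 difference was -0.08, against -0.21 for all measured genes. With LPS+8-Br-cAMP against LPS 3 members were higher and 3 lower, or 9.38% each, where 6.49% of 12572 measured genes were called higher and 5.81% lower, and the medians were 0.05 for the members and 0.05 for all measured genes. Against unstimulated cells 4 members were higher and 5 lower with LPS+8-Br-cAMP, or 12.5% and 15.6%, where 9.36% of 12793 measured genes were called higher and 15.8% lower. The members' shares thus lay near those of all genes. The 3 comparisons share arrays, so a gene read low on the LPS array alone is low in the first and high in the second.

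**Figure D1:**
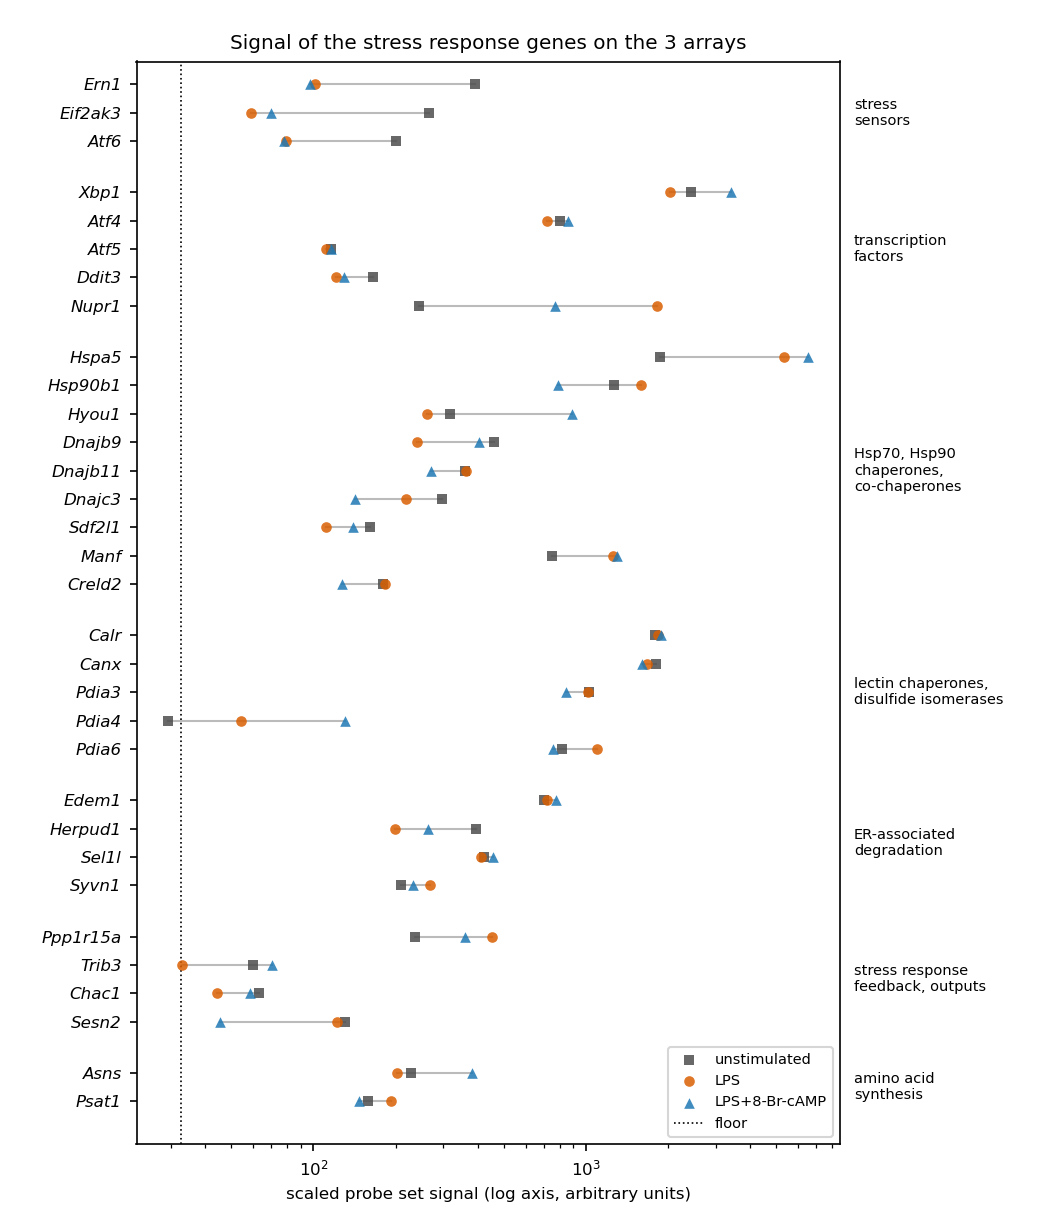
Scaled probe set signal (log axis, arbitrary units) of each of the 32 genes on the unstimulated, LPS and LPS+8-Br-cAMP arrays, grouped by role, with the floor of 32.5 as a dotted line. The sensors Ern1, Eif2ak3 and Atf6 have the unstimulated array far above both others, Hspa5 and Nupr1 have it far below, and Calr, Canx and Edem1 have all 3 arrays close together.

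The sequence around the annotated start of these genes was searched for motifs that some of them share. Each of 3 short motifs was searched for because a stress factor is known to bind it: the ER stress response element (ERSE), CCAAT and CCACG with 9 free bases between them, and its variant ERSE-II, ATTGG and CCACG with 1 free base between them, bound by ATF6 with partner factors, and the core of the C/EBP-ATF response element (CARE core), TGATGCAA, bound by ATF4. A further pair were the unfolded protein response element (UPRE) of XBP1 and ATF6, TGACGTGG, and the cyclic AMP response element (CRE), TGACGTCA. Both strands were searched in windows of 300 bases, from 250 before to 50 after the annotated start, in RefSeq sequence of build GRCm38.p6. Windows were at hand for 29 of the 32 members, and Atf6, Hyou1 and Manf were not in the table. The ERSE was in windows of 8 of 29 members, or 27.6%, and in 0.119% of all 32851 windows. The members are textbook genes of this response, so the share describes the list and is no result of the arrays. The 9 matches, 2 of them in Hsp90b1, are printed from CCAAT to CCACG with the fixed letters in capitals:
Calr, chr8:84847075-84847093: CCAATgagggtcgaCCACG
Canx, chr11:50325800-50325818: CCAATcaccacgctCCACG
Creld2, chr15:88819520-88819538: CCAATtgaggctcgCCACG
Dnajc3, chr14:118937827-118937845: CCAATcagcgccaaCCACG
Hsp90b1, chr10:86705533-86705551: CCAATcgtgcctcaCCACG
Hsp90b1, chr10:86705638-86705656: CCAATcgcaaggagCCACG
Hspa5, chr2:34772025-34772043: CCAATcggaggcctCCACG
Pdia6, chr12:17266491-17266509: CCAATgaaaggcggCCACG
Syvn1, chr19:6046532-6046550: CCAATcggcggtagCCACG

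The ERSE-II was in 2 of 29 members, against 0.0365% of all windows. In Dnajb11 it lies after the annotated start, at bases 8 to 18. Both matches are shown because they belong to members with no full ERSE match, Herpud1 and Dnajb11, and the capitals again mark the fixed letters:
Dnajb11, chr16:22857852-22857862: ATTGGcCCACG
Herpud1, chr8:94386377-94386387: ATTGGgCCACG

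The CARE core was in 3 of 29 members, Chac1, Nupr1 and Herpud1, against 0.895% of all windows. The CRE was in 1, Ppp1r15a, against 1.79%, and the UPRE in 0, against 0.676%. The 250 bases before the start are printed for 4 members whose values are described below: Hspa5 and Nupr1, the members called higher with LPS, Hsp90b1, called lower with LPS+8-Br-cAMP, and Herpud1, which holds 2 kinds of motif. Capitals mark the fixed letters of each match, on either strand:
Hspa5, chr2:34771840-34772089, plus strand: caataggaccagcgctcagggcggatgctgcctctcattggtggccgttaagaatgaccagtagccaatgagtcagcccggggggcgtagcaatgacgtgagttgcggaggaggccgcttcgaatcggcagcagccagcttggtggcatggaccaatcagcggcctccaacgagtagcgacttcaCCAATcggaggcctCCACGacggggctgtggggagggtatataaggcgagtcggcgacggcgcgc
Hsp90b1, chr10:86705445-86705694, minus strand: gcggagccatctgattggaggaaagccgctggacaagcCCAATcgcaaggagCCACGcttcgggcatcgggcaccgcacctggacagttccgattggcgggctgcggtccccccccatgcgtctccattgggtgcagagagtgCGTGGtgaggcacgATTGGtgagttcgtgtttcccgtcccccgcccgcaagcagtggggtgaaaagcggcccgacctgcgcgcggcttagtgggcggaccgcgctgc
Nupr1, chr7:126625471-126625720, minus strand: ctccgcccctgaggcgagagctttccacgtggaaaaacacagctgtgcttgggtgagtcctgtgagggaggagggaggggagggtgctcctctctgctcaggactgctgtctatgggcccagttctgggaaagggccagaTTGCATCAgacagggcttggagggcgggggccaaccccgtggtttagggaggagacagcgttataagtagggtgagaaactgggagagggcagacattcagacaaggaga
Herpud1, chr8:94386179-94386428, plus strand: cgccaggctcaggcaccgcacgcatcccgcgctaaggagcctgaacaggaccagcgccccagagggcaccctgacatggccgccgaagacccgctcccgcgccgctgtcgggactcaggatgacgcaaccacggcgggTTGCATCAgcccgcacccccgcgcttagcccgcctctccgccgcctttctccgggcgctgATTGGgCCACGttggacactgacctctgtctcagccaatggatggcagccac

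**Figure D2:**
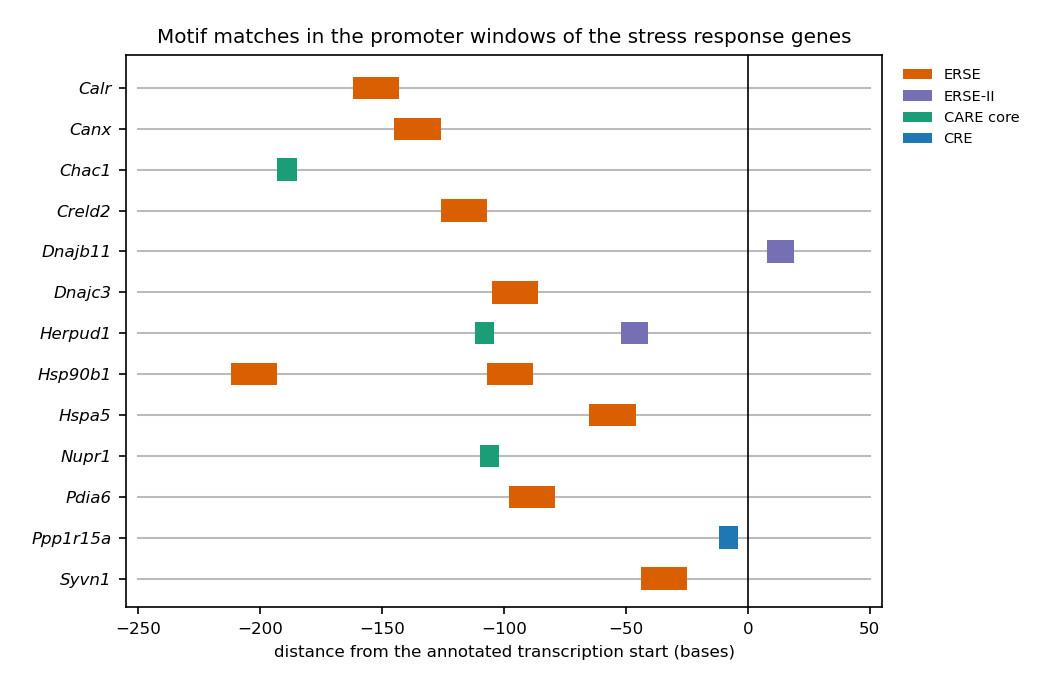
Position of each motif match in bases from the annotated transcription start (0), for the 13 members with a match, with grey lines for the windows from 250 before to 50 after the start. The 9 ERSE matches lie before the start in all 8 genes, between 212 and 26 bases from it.

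The members with an ERSE did not share a direction. The 8 had a median log2 difference of 0.18 with LPS, from -0.45 to 1.51, and the 21 members with a window but no ERSE a median of -0.16, from -2.17 to 2.91. For LPS+8-Br-cAMP against LPS the medians were -0.37 and 0.15, with ranges of -1.01 to 0.30 and -1.42 to 1.27. Each pair of ranges overlapped.

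By their brightest probe sets, all 3 sensors were lower with LPS, and the LPS+8-Br-cAMP array read close to the LPS array. Ern1, which encodes the kinase and endoribonuclease IRE1, read 392 unstimulated, 101 with LPS and 97.1 with both agents. That is 3.87-fold lower with LPS, a log2 difference of -1.95, and a further difference of -0.06 with 8-Br-cAMP. Eif2ak3, which encodes the eIF2 alpha kinase PERK, read 266, 59.1 and 69.9 in the same order, 4.51-fold lower with LPS. Atf6, the sensor that is itself a membrane-bound transcription factor, read 201, 79.6 and 77.8, 2.53-fold lower with LPS. In all 3 genes the unstimulated array was the high one and both LPS-treated arrays lay close together, at differences from each other of -0.06, 0.24 and -0.03. The differences with LPS stayed past 2-fold under each of the 4 other scalings run, from -2.24 to -1.71 for Ern1, -2.46 to -1.90 for Eif2ak3 and -1.62 to -1.06 for Atf6. With the floor at the 75th percentile, the difference of Atf6 was -0.88, inside 2-fold.

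The other probe sets of the sensors gave the same picture only in part. The next probe set of Ern1 read 75.5 unstimulated and 61.7 with LPS, a difference of -0.29, and a dimmer one read 60.2 and, under the floor, 10.4, a difference of -0.89 against the floor. A still dimmer one went the other way, at 17.2, under the floor, and 36.8, a difference of 0.18 against the floor. The next probe set of Atf6 read 122 and 123, a difference of 0.01, and the dimmest one 78.6 and 44.8, a difference of -0.81. Both other probe sets of Eif2ak3 lay under the floor on all 3 arrays. With the mean over probe sets in place of the brightest one, the differences with LPS were -0.59 for Ern1, -0.72 for Eif2ak3 and -0.71 for Atf6, so none of the 3 passed 2-fold. For Eif2ak3 the probe sets held at the floor could only shrink that mean, so its lost call is no second reading of the gene.

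**Figure D3:**
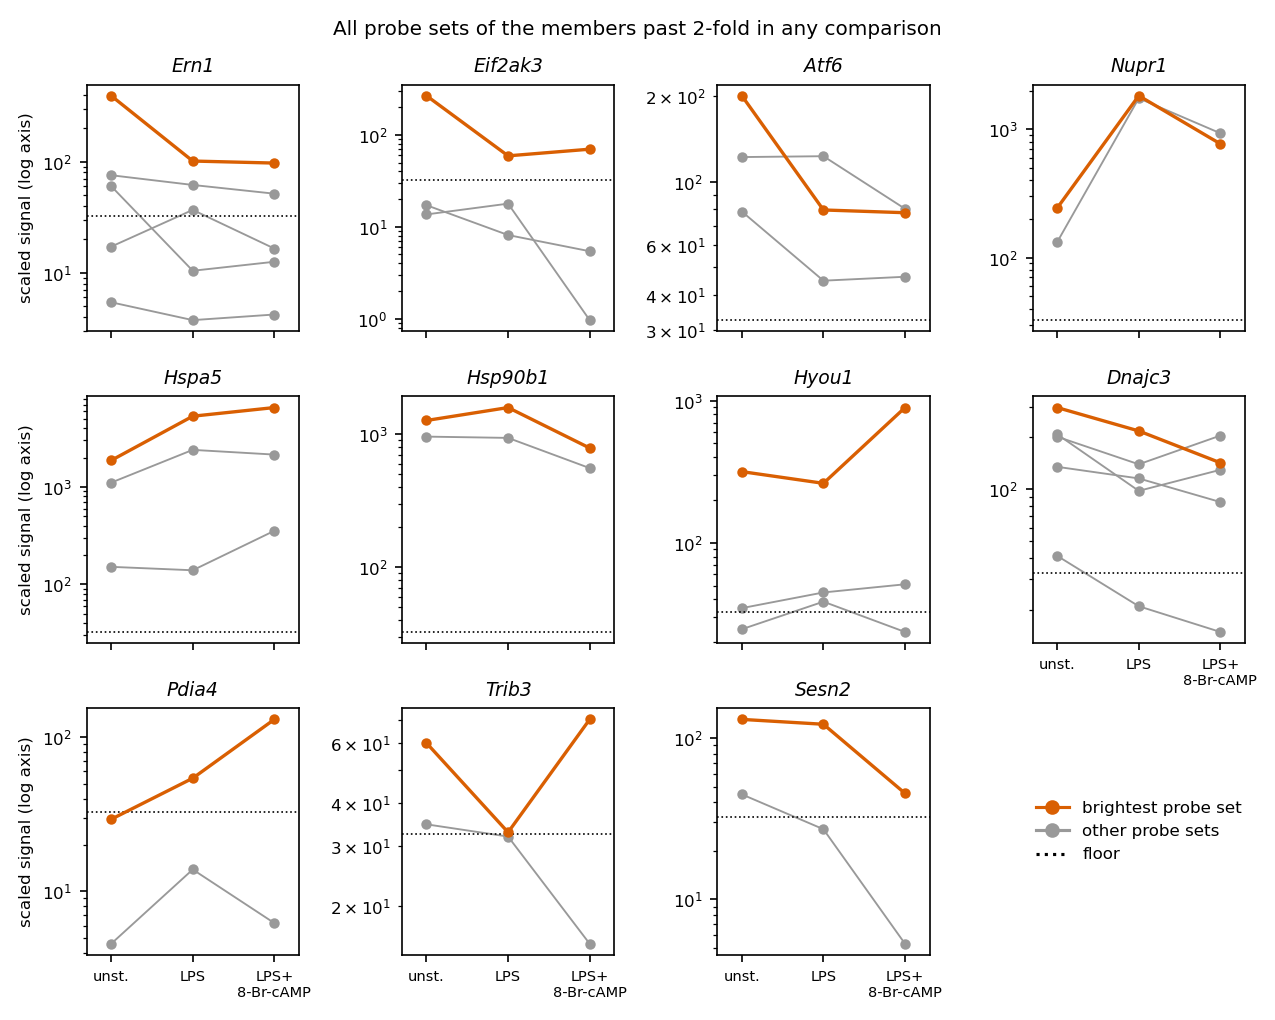
Scaled signal (log axis) on the 3 arrays for every probe set of the 11 members past 2-fold in any comparison, the brightest in orange, others in grey and the floor dotted. Both probe sets of Nupr1 go up and then part of the way down, while 1 grey line of Atf6 is level where the orange one is lower with LPS, and the grey lines of Hyou1 stay near the floor.

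Of the 5 transcription factors, Nupr1 alone passed 2-fold. Nupr1 is a small chromatin-associated stress protein. It read 243 unstimulated, 1826 with LPS and 770 with both agents. It was 7.51-fold higher with LPS, the largest difference among the 32 members. On the LPS+8-Br-cAMP array it was 2.37-fold below the LPS array and 3.17-fold above unstimulated. Its second probe set read 132, 1745 and 931, so the order of the arrays was the same, with differences of 3.72 and -0.91. The difference with 8-Br-cAMP went the same way under all 4 other scalings, at -2.06 to -1.25. Granulocyte markers, which were lower on the same array, are given above, and their part in it was not tested.

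The remaining transcription factors differed little between arrays by their brightest probe sets. Atf4, the main factor of the integrated stress response, read 803, 717 and 861. Its second probe set gave 0.17 for LPS+8-Br-cAMP against LPS. The dimmest one of Atf4 was above the floor with both agents only, at 66.7, and gave 1.03 there against the floor. The mean over the Atf4 probe sets gave 0.49. Atf5, a relative of Atf4, read 116, 111 and 115. Ddit3, which encodes the pro-apoptotic factor CHOP, read 166, 121 and 129, a difference with LPS of -0.45, about the error of 1 probe set. Xbp1 read 2427, 2043 and 3401, so it was lowest with LPS and highest with LPS+8-Br-cAMP, at a difference of 0.74 between those arrays. Its second probe set gave 0.67 there, the next 0.28 and the dimmest -0.08, and the brightest gave -0.07 when the signals were left as deposited. These probe sets are not read here as spliced or unspliced Xbp1.

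Among ER chaperones of the Hsp70 and Hsp90 families and their partners, Hspa5 stood out with LPS. Hspa5 encodes BiP, the Hsp70 of the ER that also holds the sensors inactive. It read 1872 unstimulated, 5324 with LPS and 6532 with both agents, 2.84-fold and 3.49-fold above unstimulated. Both treated arrays were high and differed from each other by 0.30, less than the error of 1 probe set. The second probe set read 1108, 2404 and 2150, a difference with LPS of 1.12. A dim one read 152, 140 and 355, with differences of -0.12 with LPS and 1.35 for LPS+8-Br-cAMP against LPS. Manf, a secreted ER stress protein, went the same way under 2-fold, at 751, 1262 and 1302, a difference with LPS of 0.75.

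The ER Hsp90, Hsp90b1, and the large Hsp70-related chaperone Hyou1 differed mainly with 8-Br-cAMP, in opposite directions. Hsp90b1 read 1273 unstimulated, 1592 with LPS and 789 with both agents, 2.02-fold lower than with LPS. This lay just past the threshold, and the second probe set, at 962, 941 and 557, gave -0.76. Hyou1 read 316, 262 and 892, 3.41-fold higher than with LPS. Its other probe sets were near the floor at 34.7, 44.8 and 51.1 and at 24.7, 38.6 and 23.6, with differences of 0.19 and -0.24 for 8-Br-cAMP. The high reading of Hyou1 thus came from 1 probe set, which is of the kind that can also read related transcripts (suffix _s_at). The brightest probe sets of Xbp1, Canx and Syvn1 and the second one of Hspa5 have this suffix too. With the signals as deposited, the difference of Hyou1 was 0.96.

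The co-chaperones went different ways without passing 2-fold in either step. Dnajb9, an ER J protein that helps BiP bind and silence IRE1, read 459, 239 and 404, so it was lowest with LPS at a difference of -0.94 and higher by 0.76 with 8-Br-cAMP. Sdf2l1, a partner of J proteins, followed the same order at 161, 111 and 140. Dnajb11 read 360, 363 and 270, and Creld2, an ER isomerase-like protein, 179, 183 and 128, so both were low on the LPS+8-Br-cAMP array alone, by -0.43 and -0.52 against LPS. Dnajc3, the J protein that inhibits eIF2 alpha kinases, read 298, 218 and 142 and was 2.09-fold below unstimulated with LPS+8-Br-cAMP. That call was lost under quantile normalization (-0.88), cyclic loess (-0.79), the pseudocount of 16 (-0.99) and the mean over probe sets (-0.55). The second probe set gave 0.02 there, and the dimmer ones gave -0.68, -0.68 and, against the floor, -0.34. The probe sets of Dnajc3 also disagreed on 8-Br-cAMP against LPS alone: the brightest gave -0.61, and others 0.41, 0.55 and -0.45.

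Of the lectin chaperones and disulfide isomerases, 4 of 5 were within 2-fold in all comparisons. Calr and Canx, the calcium-binding lectins that hold glycoproteins in the ER, read 1788, 1836 and 1880 and 1812, 1682 and 1607, and of their differences the one of Canx with LPS+8-Br-cAMP against unstimulated was the largest in size, at -0.17. The isomerase Pdia3, their partner, read 1029, 1018 and 845. Pdia6 read 820, 1094 and 757, highest with LPS. Pdia4 was the exception: it lay under the floor unstimulated, read 54.3 with LPS and 131 with LPS+8-Br-cAMP, 2.41-fold higher than with LPS and at least 4.02-fold higher than unstimulated. It was dim on all arrays, and with the floor at the 75th percentile the difference with 8-Br-cAMP was 0.26.

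ER-associated degradation, which sends misfolded proteins to the proteasome, had 0 of 4 members past 2-fold in any comparison. Edem1, a lectin that picks glycoproteins for degradation, read 700, 717 and 779, and Sel1l, the adaptor of the membrane ubiquitin ligase, 424, 411 and 457. The ligase itself, Syvn1, read 209, 269 and 232. Herpud1, a short-lived membrane component of the same complex, differed most, at 395, 200 and 263. Its difference of -0.98 with LPS lay just inside 2-fold, its second probe set gave -0.92, and the difference was -1.27 with the signals as deposited.

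Feedback and output genes of the integrated stress response were mostly dim and moved singly. Ppp1r15a, which encodes the GADD34 subunit that directs dephosphorylation of eIF2 alpha, read 236, 454 and 361, a difference with LPS of 0.94 that passed 2-fold under quantile normalization, median scaling and cyclic loess. Trib3, a pseudokinase that restrains Atf4 and Ddit3, read 59.9, 32.8 and 70.3. It was 2.14-fold higher with LPS+8-Br-cAMP than with LPS, where it lay at the floor, and a difference from unstimulated of 0.23 remained. With the signals as deposited its difference with 8-Br-cAMP was 0.02. Chac1, a glutathione-degrading enzyme, read 62.9, 44.2 and 58.5, so it too was lowest with LPS, within 2-fold. Sesn2, a leucine sensor that restrains mTORC1, read 130, 122 and 45.4 and was 2.68-fold lower with LPS+8-Br-cAMP than with LPS (-0.16 with the floor at the 75th percentile). The second probe set of Sesn2 was under the floor on both of those arrays, at 27.2 and 5.30, so it gives no difference.

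Both amino acid synthesis genes stayed within 2-fold. Asns, asparagine synthetase, read 228, 203 and 382, a difference of 0.91 with 8-Br-cAMP, and its second probe set gave 0.84. Psat1, an enzyme of serine synthesis, read 158, 193 and 147, and its second probe set went the other way with LPS, -0.35 against 0.29. Asns was among the members nearest to the threshold: Hsp90b1 and Trib3 lay just past it for LPS+8-Br-cAMP against LPS, at -1.01 and 1.10, and Asns and Dnajb9 just inside, at 0.91 and 0.76.

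**Figure D4:**
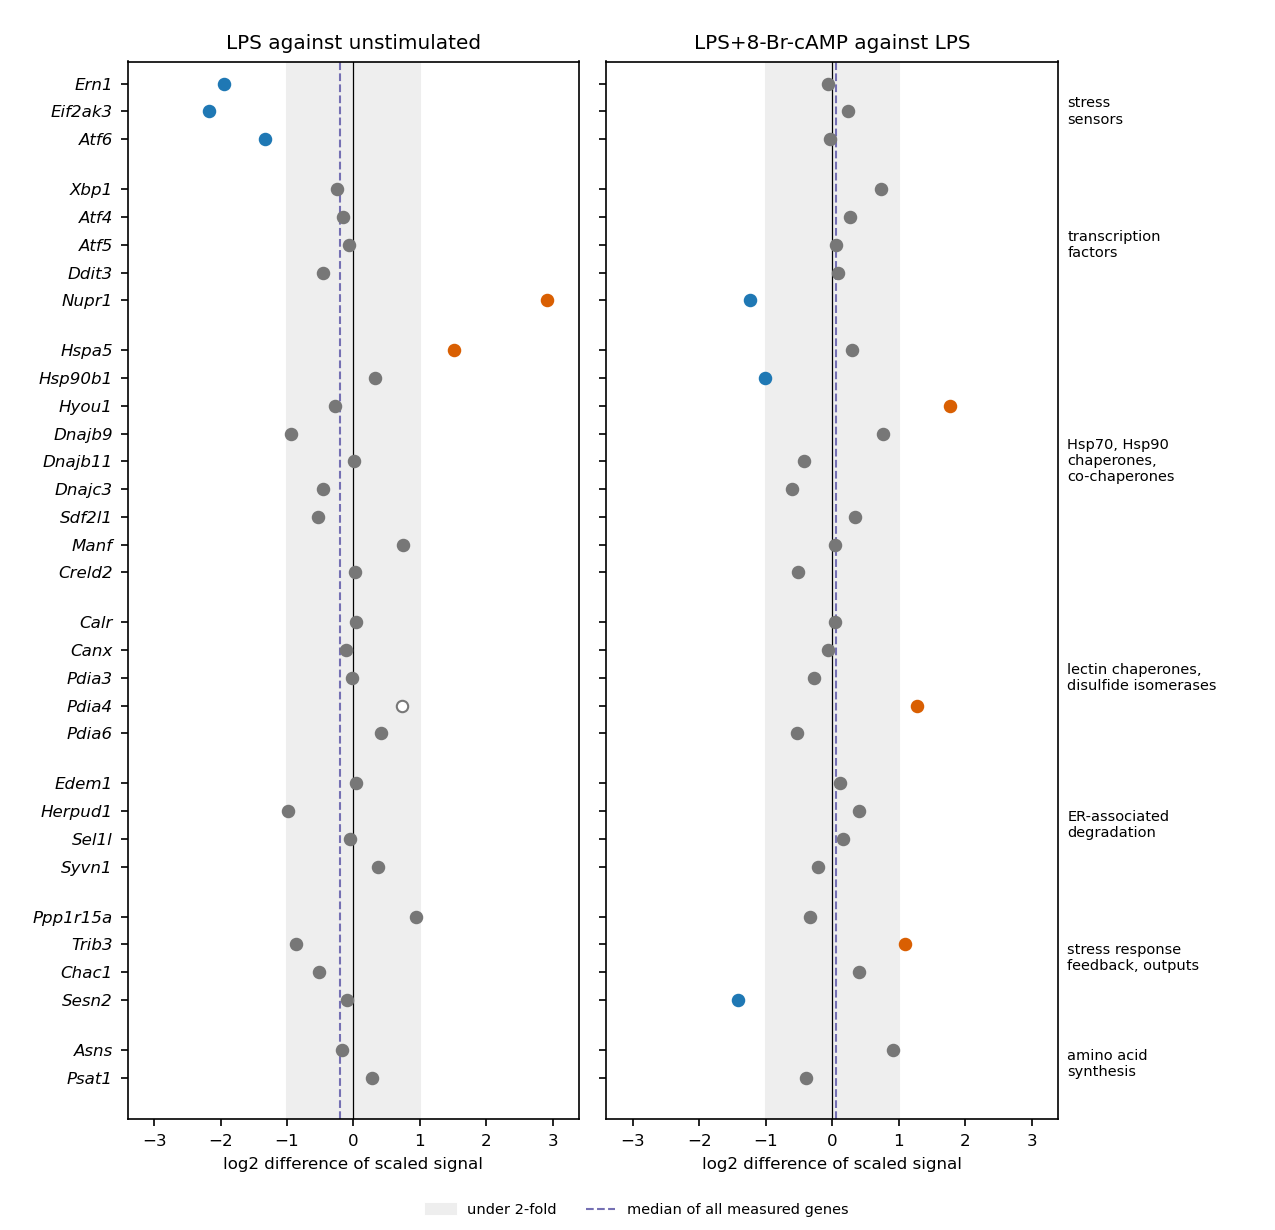
Log2 difference of scaled signal for each of the 32 genes, LPS against unstimulated (left) and LPS+8-Br-cAMP against LPS (right), orange when at least 2-fold higher, blue when at least 2-fold lower and grey otherwise, with an open point for a lower bound and the median of all measured genes dashed. On the left the 3 sensors lie below the shaded band of under 2-fold and Nupr1 and Hspa5 above it, and on the right Hyou1, Pdia4 and Trib3 lie above it and Sesn2, Nupr1 and Hsp90b1 below.

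A member's next probe set was counted where it lay above the floor on at least 1 array of the comparison. It went the same way as the brightest for 14 of 20 with LPS and 11 of 18 with LPS+8-Br-cAMP against LPS. Of the 5 members called with LPS, 4 had such a probe set, 3 of these went the same way and 2 passed 2-fold, Nupr1 and Hspa5. Of the 6 members called for LPS+8-Br-cAMP against LPS, 3 had one, all 3 went the same way and 0 passed 2-fold.

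Further genes of the same pathways were taken from 6 lists of 124 genes, of which 116 matched the annotation. With LPS 8 of the 114 that were measured passed 2-fold upward and 13 downward, or 7.02% and 11.4%. For LPS+8-Br-cAMP against LPS 8 of 116 were higher and 4 lower, or 6.90% and 3.45%. These shares lay near those of all measured genes in the first comparison, and the lower share was below the 5.81% of all genes in the second.

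The list of other ER folding, translocation, degradation and export genes hardly moved. Of 40 measured, 0 were higher and 1 lower with LPS, Srprb, a subunit of the signal recognition particle receptor, at -1.52 (-0.29 by its second probe set). With LPS+8-Br-cAMP against LPS 1 was higher, Golt1b, a Golgi transport gene, at 1.22, and 1 lower, Ero1a, the oxidase that recharges the disulfide isomerases. Ero1a read 1847, 2237 and 1022, 2.19-fold lower. The list's medians were -0.15 and 0.02.

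Regulators of the response differed more. Of 21 measured, 4 were higher and 6 lower with LPS, with a median of -0.42. Eif2ak2, the eIF2 alpha kinase PKR, which senses double-stranded RNA and is itself an interferon-stimulated gene, read 111 unstimulated, 634 with LPS and 420 with both agents. It was 5.72-fold higher with LPS, and 1.85 log2 units higher by its second probe set. The other eIF2 alpha kinases on the list were not higher with LPS: Eif2ak1 (HRI), which senses haem, differed by -1.19 (-0.41 by its second probe set) and Eif2ak4 (GCN2), which senses uncharged tRNA, by -0.77 (-1.11). By their brightest probe sets, Eif2ak3 and Eif2ak1 thus passed 2-fold downward with LPS, Eif2ak2 upward and Eif2ak4 in neither direction. Nck1, an adaptor with a role in eIF2 alpha dephosphorylation, was higher by 2.20 with LPS and differed by -1.32 with 8-Br-cAMP. Atf3, a stress-induced repressor, read 783, 2421 and 810, so the LPS+8-Br-cAMP array lay near the unstimulated one. Eif2b1, a subunit of the exchange factor that phosphorylated eIF2 alpha blocks, read 167, 42.7 and 175 on its 1 probe set, so the LPS array alone was low. For LPS+8-Br-cAMP against LPS 2 of 21 regulators were higher, Eif2b1 and Eif2b2, and 3 lower.

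Amino acid supply genes showed 1 large difference with LPS. Slc7a11, the cystine transporter, read 141, 1949 and 1713, 13.8-fold higher with LPS, and its partner chain Slc3a2 was higher by 1.33. The glutamine transporter Slc38a2 differed by -1.44 and Got1, an aspartate aminotransferase, by -1.38, which made 2 of 18 measured genes higher and 2 lower. With LPS+8-Br-cAMP against LPS 2 of 19 were higher and 0 lower, Got1, at 660, 254 and 1107, and the arginine transporter Slc7a1, higher by 1.25. The median was 0.41 with 14 of 19 above 0, where all measured genes had a median of 0.05, and it was 0.13 with probe sets ending in a plain _at only and -0.34 with the signals as deposited. The cytosolic aminoacyl-tRNA synthetases, which charge tRNA and are targets of Atf4, were alike: of 11 measured, 0 were higher and 2 lower with LPS, Mars1 and Yars, at a median of -0.46, and 1 was higher with 8-Br-cAMP, Wars, 2.29-fold, at a median of 0.37 (-0.52 as deposited). Both medians of each list share the LPS array.

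Among further targets of the integrated stress response, Ddit4, an inhibitor of mTORC1, read 462, 714 and 2559 and was 3.59-fold higher with LPS+8-Br-cAMP than with LPS. It was the 1 of 9 measured that passed 2-fold there. With LPS 1 of 8 was higher, the cell death gene Bbc3 at 1.30, and 1 lower, Gadd45a at -1.06. Of 16 cytosolic heat shock genes, which answer unfolded protein outside the ER, 1 was higher with LPS, the co-chaperone Stip1 at 1.15, and 1 lower, Hsph1 at -1.18. Hsph1 read 187, 82.1 and 194 and was the 1 heat shock gene past 2-fold with 8-Br-cAMP, higher by 1.24 and by 0.64 on its second probe set.

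**Figure D5:**
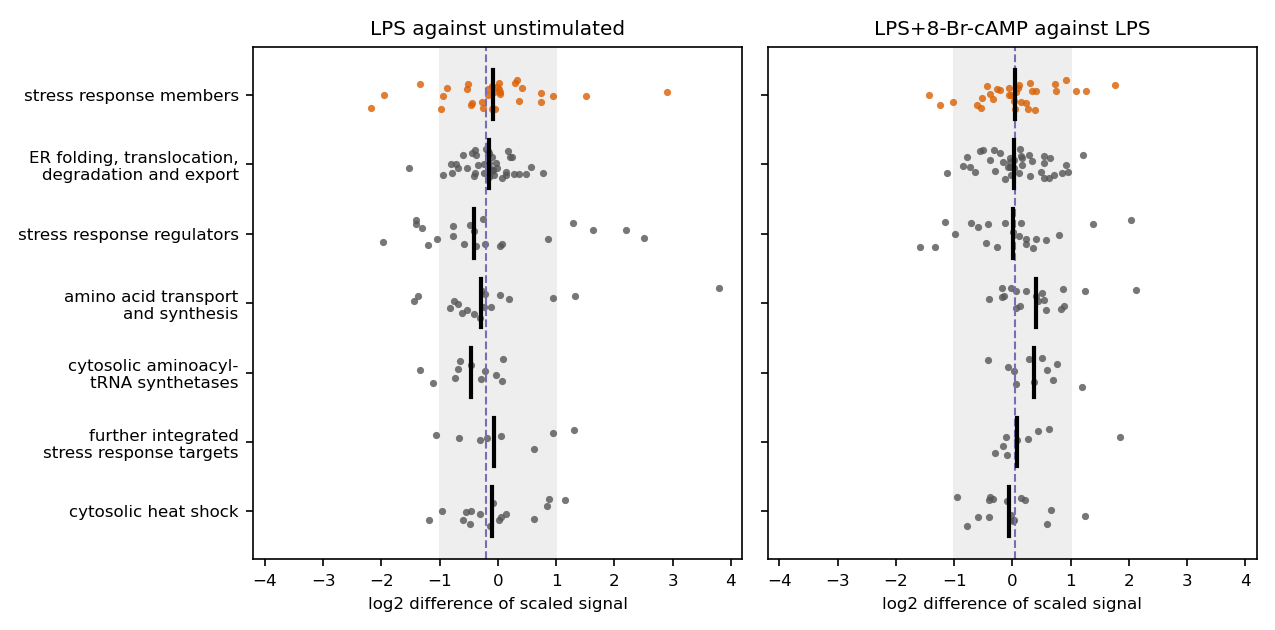
Log2 difference of scaled signal of each measured gene of the 32 members (orange) and of 6 further lists (grey), LPS against unstimulated (left) and LPS+8-Br-cAMP against LPS (right), with list medians as black bars, the median of all measured genes dashed and the range under 2-fold shaded. Most points of every list lie in the shaded band, and the medians of the amino acid and tRNA synthetase lists lie left of the dashed line on the left and right of it on the right.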

How the data were processed

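Gene expression was measured in mouse BMDCs on 3 Affymetrix Mouse 430 2.0 arrays, 1 per condition. The authors deposited linear signal intensities, 1 per probe set. The submitters' processing notes name MAS5, and the sources used here give neither its version nor its target value. Columns were matched to conditions by sample label. Of 45101 probe sets 64 controls were left out, and 34945 carried 1 gene in the platform annotation.

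Arrays were scaled to a common trimmed mean (2% off each end; factors of 0.763, 0.929 and 1.63 for BMDC(-), BMDC(+LPS) and BMDC(+LPS+cAMP)), floored at 32.5 and taken to log2 in Python 3.11.15 with pandas 2.3.3. The array of each sample is the only one of its group, so no test was run and the number of arrays limits the precision. A gene counted as measured where either array of the comparison had it above the floor. Members and lists were chosen with earlier results of these data known. All 32 members are named; of each further list, genes came from the 4 with the largest differences in either of the first 2 comparisons, and Eif2ak1 and Eif2ak4 were added after their values were seen, to complete the eIF2 alpha kinases. Quantile normalization and cyclic loess used limma 3.58.1. The steps were tested on simulated data.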

Additional observations from a re-analysis of the deposited data

How the results depend on the processing

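Of the 20 calls of members over the 3 comparisons, the mean over probe sets kept 5, the 3-fold threshold 9, probe sets ending in a plain _at 11, no scaling and the floor at the 75th percentile 13 each, the pseudocount 17, and quantile normalization and cyclic loess 19 each. Median scaling kept all 20. The floor at the 25th percentile and 1.5-fold kept all 20 as well, but a lower floor or threshold cannot lose a call. Where no scaling was applied, the median of all measured genes moved from -0.21 to -0.47 with LPS, from 0.05 to -0.65 for LPS+8-Br-cAMP against LPS and from -0.12 to -1.08 for LPS+8-Br-cAMP against unstimulated, and the members' medians were -0.36, -0.76 and -1.15. Members called were then 5 lower with LPS, 0 higher and 11 lower for LPS+8-Br-cAMP against LPS, and 0 higher and 18 lower against unstimulated; of all measured genes 4.68% were higher and 22.1% lower with LPS, 0.903% and 28.0%, and 2.50% and 53.6%. Cyclic loess gave a median of 0.10 for the last comparison. With the mean over probe sets, which averages in dim probe sets held at the floor, 1 member was higher and 0 lower with LPS, 0 higher and 1 lower for LPS+8-Br-cAMP against LPS, and 0 lower against unstimulated, where all measured genes had 5.26% and 8.04%, 3.73% and 3.41%, and 9.99%. Probe sets ending in a plain _at left 25 members measured. Hspa5, Nupr1, Hsp90b1 and Trib3 have none, so their calls could not be kept in that setting. Of the 25, 0 were higher and 3 lower with LPS (6.62% and 13.3% of all measured genes). For LPS+8-Br-cAMP against LPS 1 was higher and 1 lower (6.54% and 6.05% of all measured genes). Against unstimulated 1 was higher and 5 lower (9.04% and 15.7% of all measured genes). With the floor at the 75th percentile 2 of 29 measured members were higher and 2 lower with LPS (8.17% and 8.34% of all measured genes). For LPS+8-Br-cAMP against LPS 1 of 27 was higher and 2 lower (4.70% and 4.73% of all measured genes). Against unstimulated 3 of 30 were higher and 3 lower (9.88% and 11.5% of all measured genes). At 1.5-fold 5 were higher and 6 lower with LPS, 6 and 4 for LPS+8-Br-cAMP against LPS, and 7 and 7 against unstimulated, where all measured genes had 13.9% and 28.6%, 18.1% and 15.8%, and 18.5% and 29.5%. At 3-fold 1 was higher with LPS (3.31% of all measured genes), 1 higher and 0 lower for LPS+8-Br-cAMP against LPS (1.45% and 1.22%), and 2 lower against unstimulated (5.38%). Of 833 values of single members under these alternatives 745 moved by less than the error of 1 probe set and 88 by more, and 0 called values changed sign. The 745 include values that a setting cannot alter, such as those of genes with 1 probe set under the mean over probe sets. That count is therefore no measure of stability. Alternatives for the 6 further lists were chosen after seeing the data. No paired analysis was possible because each group has 1 array and the labels carry no replicate numbers. Signals near the floor, as for Pdia4, Trib3, Chac1 and Sesn2, limit what can be said of those genes.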
